A study of Mus musculus with 69 samples.

Results

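The 36 genes described here were listed as direct targets of the transcription factor p53, and binding of p53 to them was not measured here. They were chosen by symbol for roles in cell cycle arrest, repair, metabolism and trafficking, though some, such as Perp, Aen, Ei24, Trp53inp1 and Triap1, have also been linked to cell death or survival, and all 36 were found among the 55367 gene symbols counted in this series. The series holds 69 RNA sequencing libraries from mouse embryonic stem (mES) cells and mosaic gastruloids, which are three-dimensional aggregates of mES cells that model early development. All cells derived from the E14Tg2A line, and each condition had 3 libraries from independent experiments. WT–mCherry cells carried an EF1α–H2B–mCherry reporter, WT–emiRFP cells carried a CAG–H2B–emiRFP670 reporter, and p53KO–emiRFP cells were made from the WT–emiRFP clone. The p53KO–emiRFP line is 1 clone, picked after Nutlin-3a selection, with a frameshift of 1 inserted base in exon 4 of Trp53, so that a clone effect and the loss of p53 cannot be told apart.

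Libraries at 0 h came from the 3 clones as mES cells in serum with LIF. From 48 to 144 h they came from cells sorted by reporter out of mixed cultures, at 5 times, with CHIR99021 present from 48 to 72 h. WT + WT cultures were seeded with 150 WT–mCherry and 150 WT–emiRFP cells, and WT + p53KO cultures with 150 WT–mCherry and 25 p53KO–emiRFP cells. The comparison of p53KO–emiRFP with WT–emiRFP cells after 0 h therefore also compares WT + p53KO with WT + WT cultures and 25 with 150 seeded cells. The comparison of WT–mCherry cells by neighbour likewise sets 25 p53KO–emiRFP against 150 WT–emiRFP neighbours at seeding, so that the genotype and the number of the neighbours cannot be told apart. Each comparison below shares its WT libraries with others.

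p53 is a DNA-binding protein that pluripotent cells make in large amounts and that Mdm2 keeps in check. When it is stabilised, it binds paired copies of a short motif and raises transcription of genes that slow the cell cycle, repair DNA, alter metabolism and restrain growth signalling, besides those that start apoptosis. Several of its targets, among them Ccng1 and Mdm2, feed back on p53 itself.

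Library depth ran from 26722541 to 72981570 counts with a median of 53098728, and was at least 44049258 in the gastruloid libraries. Replicates of a group correlated at 0.987 or more on the log2 scale. Trp53 had 1506 to 2589 normalised counts in every p53KO–emiRFP library and 14885 to 27511 in every WT–emiRFP library, without overlap at any time. All 6 mES cell markers were detected in every group, gastruloids included, so detection did not set mES cells apart. Their summed level was 179347 to 219182 normalised counts in the mES cell libraries and at most 94266 in the sorted ones. H2bc14, a histone H2B gene that was high in both emiRFP lines (7976 to 10517 normalised counts as mES cells) and near zero in WT–mCherry mES cells (6.20 to 8.21), was used to estimate the share of emiRFP-cell RNA in sorted WT–mCherry libraries. That share was at most 2.00% beside WT cells, and by H2bc21, another H2B gene, at most 6.52%. Beside p53KO cells it was 0.208 to 0.278% at 48 h, 1.39 to 3.49% at 96 h, 2.91 to 7.34% at 120 h and 2.26 to 16.7% at 144 h.

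To show where p53 could meet these genes, the exact p53 decamer consensus, the 10-base unit of which a p53 site holds a pair, was sought in windows from 250 bases before to 50 bases after each RefSeq transcription start (GRCm38.p6). The motif is its own reverse complement in consensus form, so 1 search covers both strands. Of the 36 members, 29 had a window, and 7 of these (24.1%) held at least 1 exact decamer, against 9.55% of the 27025 symbols in the table. The 8 decamers, in capitals with 10 bases on each side, read 5′ to 3′ along the gene as follows.
Aen, chr7:78895927-78895956, plus strand: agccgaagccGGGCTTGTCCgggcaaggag
Ei24, chr9:36797325-36797354, minus strand: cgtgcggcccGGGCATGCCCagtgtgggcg
Rps27l, chr9:66946193-66946222, plus strand: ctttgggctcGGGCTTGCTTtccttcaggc
Rps27l, chr9:66946296-66946325, plus strand: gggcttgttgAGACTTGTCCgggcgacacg
Ccng1, chr11:40755452-40755481, minus strand: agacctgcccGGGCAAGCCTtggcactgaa
Polk, chr13:96519399-96519428, minus strand: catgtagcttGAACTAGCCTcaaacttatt
Abhd4, chr14:54259274-54259303, plus strand: cgacccggcaGGGCTTGTTTactatggctg
Gtse1, chr15:85859945-85859974, plus strand: gagcaagttgGGGCTTGCCTctgacttgcc
The decamers of Aen, Abhd4 and Gtse1 began at bases 11, 2 and 10, with the first transcribed base counted as 1, and that of Ei24 began 10 bases before its first transcribed base. Aen had another RefSeq start, and for it the same decamer lay within the 250 bases before the start. Rps27l, Polk, Abhd4 and Gtse1 each had another RefSeq start whose window held no exact decamer. The whole 250 bases before the start of Ccng1, the member with the lowest mean fold change in p53KO–emiRFP cells among those with a decamer, at chr11:40755287-40755536 on the minus strand, are shown with the decamer in capitals.
Ccng1: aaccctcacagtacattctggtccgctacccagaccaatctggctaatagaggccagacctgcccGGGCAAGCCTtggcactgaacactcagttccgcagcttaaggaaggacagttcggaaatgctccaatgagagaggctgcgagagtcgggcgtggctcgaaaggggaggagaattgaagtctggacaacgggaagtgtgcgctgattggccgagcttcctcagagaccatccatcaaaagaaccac
A match is a description of the letters and not evidence of binding. Phlda3, Zfp365, Plk2 and Dcxr, with mean log2 fold changes over the 6 times of −3.94, −3.82, −3.41 and −2.69 against −4.13 for Ccng1, had windows without an exact decamer.

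All 36 members passed the filter on low counts at every time. Their median raw counts ran from 48 (Dram1) to 13634 (Ccng1), and the lowest count of any member in any library was 16 (Gdf15). Per kilobase of exon, levels in WT–emiRFP cells at 72 h ran from 21.9 normalised counts (Dram1) to 14480 (Rps27l). By position, 10 members overlap another annotated gene (Plk3, Ddb2, Polk, Rrm2b, Ei24, Tigar, Ephx1, Pltp, Sulf2 and Def6). The strand setting of the counting is not given in the sources used here, so reads of these members and of their neighbours may not be fully separated.

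The first question was how these genes differed between p53KO and WT cells at each time, so p53KO–emiRFP cells were compared with WT–emiRFP cells. A call here is an adjusted p below 0.05 in edgeR's quasi-likelihood test across all genes of a time. Most members were lower without p53 at every time, and a core of 17 members was lower at all 6 times. As mES cells, 23 of 36 members were lower and 0 were higher, where 4.16% of all genes tested were lower and 1.97% were higher. No member reached an unadjusted p under 0.05 in the higher direction at 0 h, and DESeq2 also called 0 higher. At 48 h 24 members were lower and 0 higher, against 11.7% and 10.3% of all genes. Unadjusted, 3 members were higher at 48 h, and DESeq2 called 0. At 72 h 27 were lower and 1 was higher, against 15.7% and 13.4%. At 96 h 25 were lower and 2 higher, against 13.8% and 9.45%. At 120 h 28 were lower and 1 higher, against 23.7% and 27.3%, and at 144 h 26 were lower and 2 higher, against 32.2% and 33.2%. The share of all genes that differed thus grew late in the culture while the members' count stayed between 23 and 28. In time order, the median log2 fold changes of the members were −0.80, −1.08, −1.52, −1.17, −1.01 and −1.18, while that of all genes lay between −0.01 and 0.05.

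Same-numbered libraries deviated together in every pair of this comparison, and a fit blocked by replicate number added calls. In it 27, 27, 27, 28, 29 and 26 members were lower and 0, 3, 1, 3, 1 and 3 higher in time order. Of all genes the blocked fits called 1146, 3314, 3424, 3879, 5296 and 6721 lower and 655, 3945, 3476, 3202, 6357 and 6968 higher. The added members were Triap1, Tigar, Gpx1 and Sulf2 (lower at 0 h), Tob1, Epha2 and Enc1 (lower) and Plk3, Tigar and Gpx1 (higher) at 48 h, Tob1, Gpx1 and Pltp (lower) and Xpc (higher) at 96 h, Tob1 (lower at 120 h) and Sulf2 (higher at 144 h).

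**Figure D1:**
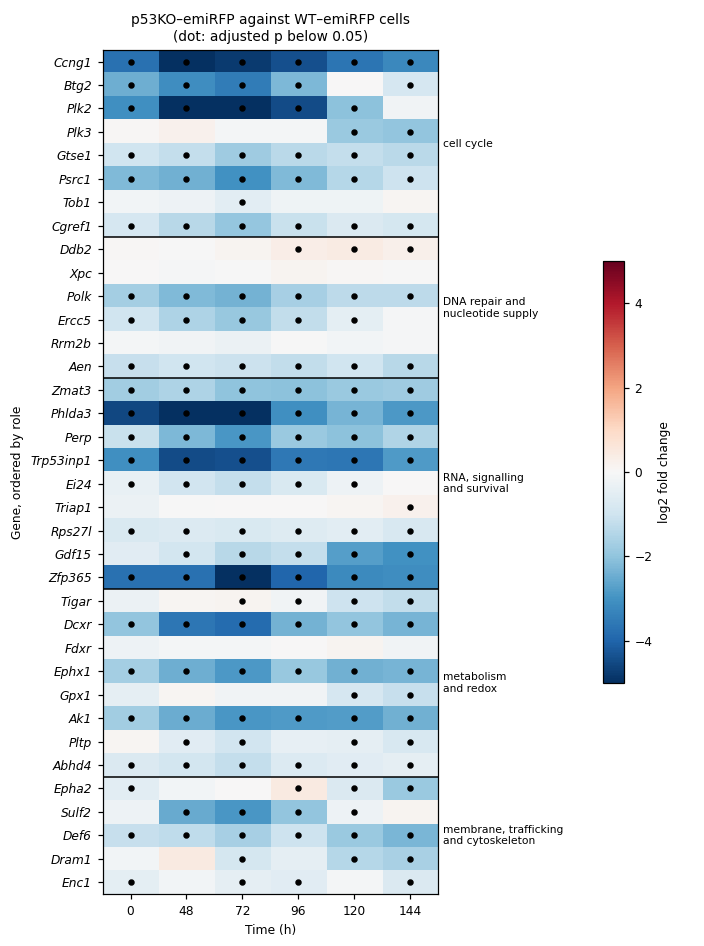
Heat map of the log2 fold change of p53KO–emiRFP against WT–emiRFP cells for the 36 members (rows, ordered by role) at 6 times (columns, h), with a dot where the adjusted p was below 0.05. Blue means lower in p53KO–emiRFP cells. A block of members (Ccng1, Phlda3, Trp53inp1, Zfp365, Dcxr) is dark blue in all columns, Plk2 and Sulf2 fade by 144 h, and Plk3, Tigar and Gpx1 are darkest at 120 and 144 h.

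The members lower at all 6 times were Ccng1, Gtse1, Psrc1, Cgref1, Polk, Aen, Zmat3, Phlda3, Perp, Trp53inp1, Rps27l, Zfp365, Dcxr, Ephx1, Ak1, Abhd4 and Def6. The calls of Cgref1, Rps27l and Abhd4 at 0 h were lost without replicate 2. Of the 16307 genes tested at every time, 247 (1.51%) were lower at all 6. Another 14 members were lower at 1 to 5 times. Ddb2, Xpc, Rrm2b, Triap1 and Fdxr were lower at none, although blocked by replicate number Triap1 was lower at 0 h (adjusted p = 0.0453, unblocked 0.157). By role, 4 of 8 cell cycle members, 2 of 6 members of DNA repair and nucleotide supply (Polk, and Aen, a nuclease known for promoting apoptosis rather than for repair), 6 of 9 regulators of RNA, signalling and survival, 4 of 8 members of metabolism and redox, and 1 of 5 members of membrane, trafficking and cytoskeleton were lower at all 6 times.

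Among the cell cycle members, Ccng1, which encodes cyclin G1, a partner of the phosphatase that activates Mdm2, had the highest median raw count. In WT–emiRFP cells its normalised counts were 10239, 9607 and 11576 at 0 h, next 22618, 21728 and 25284 at 48 h, and then 26756, 28743 and 33315 at 72 h. They were 20234, 18498 and 21052 at 96 h, next 13349, 11982 and 13858 at 120 h, and then 9564, 9675 and 10501 at 144 h. In p53KO–emiRFP cells Ccng1 stayed between 678 and 1197 in all 18 libraries, with 915, 762 and 678 at 0 h and 1081, 1015 and 1059 at 144 h. No p53KO library reached any WT library, and the rise and fall over time in WT cells had no counterpart of that size in p53KO cells. The log2 fold change was −3.74 ± 0.15 (SE, adjusted p = 1.36e-08, edgeR) at 0 h, −4.99 ± 0.08 (1.07e-15) at 48 h and −3.24 ± 0.06 (1.07e-12) at 144 h.

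Plk2, a polo-like kinase of the G1 and S phases, was lower in p53KO–emiRFP cells early and no longer differed detectably at the end. In WT–emiRFP cells it had 1964, 1597 and 1610 normalised counts at 0 h, next 3300.2, 3184 and 3531 at 48 h, and then 2997, 2580.1 and 2619 at 96 h. It then had 2525, 2283 and 2449 at 120 h and 1933, 1931 and 1599 at 144 h. In p53KO–emiRFP cells it had 147, 213 and 267 at 0 h, next 82.0, 83.2 and 60.4 at 48 h, next 115, 159 and 103 at 96 h, next 567, 513 and 694 at 120 h, and then 1864, 1343 and 1605 at 144 h. The groups were apart through 120 h and overlapped at 144 h. The log2 fold change went from −3.05 ± 0.26 (adjusted p = 1.29e-05) at 0 h and −5.48 ± 0.11 (6.14e-15) at 48 h to −2.03 ± 0.09 (7.76e-10) at 120 h and −0.18 ± 0.12 (0.188) at 144 h. Plk3, another polo-like kinase, had the opposite course. At 96 h it had 532, 531 and 446 normalised counts in WT–emiRFP and 476, 497 and 441 in p53KO–emiRFP cells, which overlapped. At 144 h it had 2739, 2943 and 2636 in WT–emiRFP and 656, 693 and 787 in p53KO–emiRFP cells, which did not (log2 fold change −1.96 ± 0.08, adjusted p = 2.72e-10).

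The other cell cycle members fell between these courses. Btg2, an antiproliferative adaptor of the deadenylase complex, differed by −3.51 ± 0.12 (log2, adjusted p = 1.59e-11) at 72 h and by −0.86 ± 0.09 (2.29e-06) at 144 h, but at 120 h its difference was 0.03. The microtubule-binding proteins Psrc1 and Gtse1, the latter also a p53 antagonist, differed by −3.04 ± 0.06 and −1.80 ± 0.06 at 72 h and by −1.04 ± 0.08 and −1.33 ± 0.05 at 144 h. Cgref1 differed by −1.93 ± 0.08 at 72 h and −0.86 ± 0.18 at 144 h. Tob1, a relative of Btg2, was called at 72 h, with −0.53 ± 0.13 (adjusted p = 5.63e-03). Blocked by replicate number, Tob1 was lower at 4 times, with adjusted p of 1.21e-03 at 48 h, 0.0323 at 96 h and 0.0251 at 120 h besides 72 h.

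**Figure D2:**
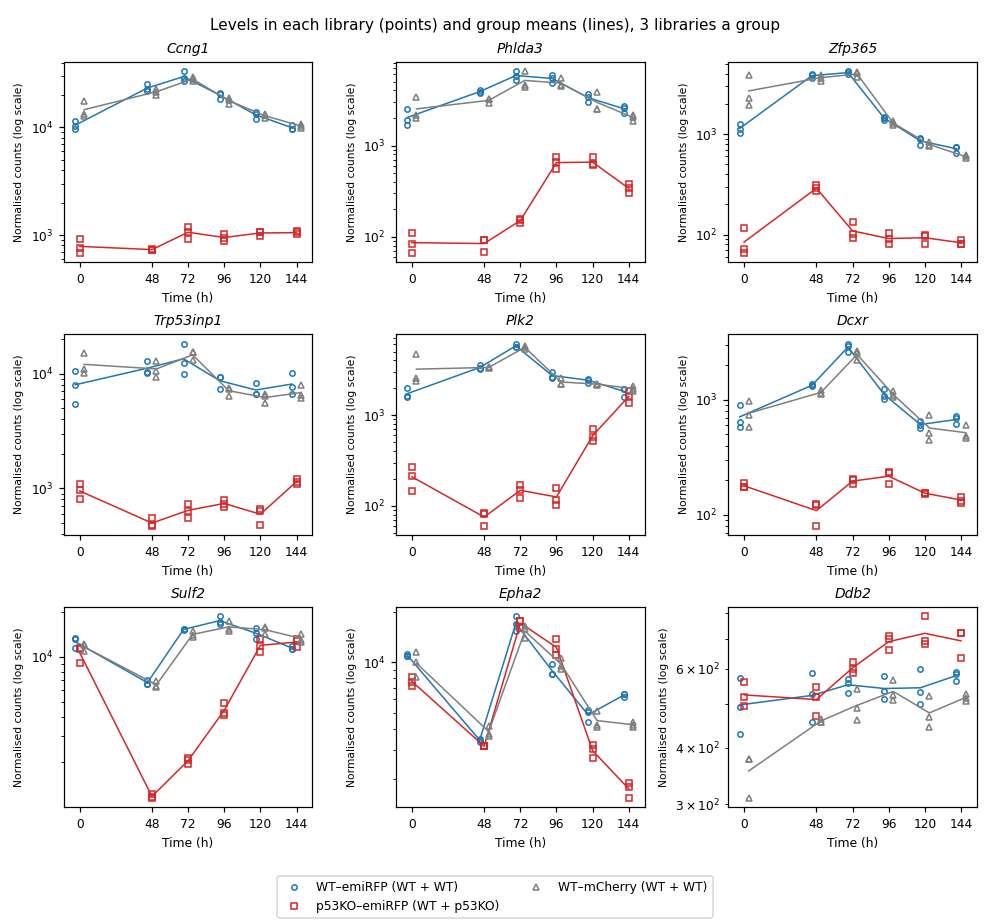
Normalised counts (log axis) of 9 members against time (h) in each library (points) with group means (lines) for WT–emiRFP, p53KO–emiRFP and WT–mCherry cells, 3 libraries a group. At 0 h these are separate mES cell cultures, and from 48 h both WT lines come from WT + WT cultures. Ccng1, Phlda3, Zfp365, Trp53inp1 and Dcxr stay apart at all 6 times. Plk2 and Sulf2 reach WT levels by 144 h. Epha2 in p53KO–emiRFP lies below WT–emiRFP cells at 0, 48, 120 and 144 h, narrowly at 48 h, and Ddb2 lies slightly above them from 72 h.

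Among the members grouped under DNA repair and nucleotide supply, Polk, Aen and Ercc5 were lower at 1 or more times and Ddb2, Xpc and Rrm2b at none. Polk, a translesion DNA polymerase, had 1667, 1648 and 1875 normalised counts in WT–emiRFP and 301, 368 and 343 in p53KO–emiRFP cells at 72 h. The groups were far apart, with a log2 fold change of −2.35 ± 0.09 (adjusted p = 2.35e-11), and at 144 h it was −1.31 ± 0.06 (1.12e-09). Aen, the apoptosis-enhancing nuclease, differed by −1.08 ± 0.05 at 72 h and −1.38 ± 0.06 at 144 h. Ercc5, the XPG endonuclease of nucleotide excision repair, differed by −1.91 ± 0.07 (adjusted p = 1.32e-11) at 72 h and by −0.05 ± 0.07 (0.553) at 144 h.

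Ddb2, which recognises ultraviolet damage, was the one member higher in p53KO–emiRFP cells at 3 or more times. At 96 h it had 699, 660.0 and 708 normalised counts in p53KO–emiRFP and 514, 578 and 535 in WT–emiRFP cells. At 120 h it had 691, 785 and 681 against 600.4, 500.1 and 532, and at 144 h 719, 635 and 722 against 591, 565 and 583. The groups did not overlap at these times, and the log2 fold changes were 0.35 ± 0.07 (adjusted p = 3.60e-03), 0.40 ± 0.09 (2.60e-03) and 0.26 ± 0.08 (0.0146). The call at 96 h was lost without replicate 1, and that at 144 h without replicate 1 or replicate 3. Xpc, the lesion sensor of the same repair pathway, had log2 fold changes of −0.04 to 0.13 over the 6 times, and Rrm2b, a ribonucleotide reductase subunit, of −0.27 to −0.002, with no call unless blocked, where Xpc was higher at 96 h (adjusted p = 5.26e-03). Ddb2 and Rrm2b overlap other genes.

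Among the regulators of RNA, signalling and survival, Phlda3, an inhibitor of Akt, had the largest difference at 0, 48 and 72 h. In WT–emiRFP cells it had 2533, 1665 and 1884 normalised counts at 0 h, next 4043, 3736 and 3871 at 48 h, next 4833, 5443 and 5973 at 96 h, and then 2578, 2686 and 2293 at 144 h. In p53KO–emiRFP cells it had 66.4, 84.2 and 109 at 0 h, next 68.5, 91.8 and 93.6 at 48 h, next 655, 549 and 748 at 96 h, and then 301, 344 and 375 at 144 h. The p53KO libraries stayed below the WT libraries throughout but rose between 72 and 96 h. The log2 fold change was −4.56 ± 0.25 (adjusted p = 3.15e-07) at 0 h, −5.52 ± 0.10 (3.14e-15) at 48 h, then −3.05 ± 0.11 (8.97e-11) at 96 h and −2.89 ± 0.12 (3.65e-10) at 144 h.

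Zfp365, a centrosomal and genome stability protein, and Trp53inp1, a stress-induced p53 cofactor, kept large differences at all times. Zfp365 had 4231, 3924 and 4102 normalised counts in WT–emiRFP and 92.7, 132 and 102 in p53KO–emiRFP cells at 72 h, and 750.0, 654 and 739 against 80.1, 88.2 and 81.5 at 144 h. Trp53inp1 had 9876, 12303 and 18335 against 551, 639 and 736 at 72 h, and 6644, 7703 and 10054 against 1084, 1144 and 1205 at 144 h. In both genes all p53KO libraries were below all WT libraries. The log2 fold change of Zfp365 was −5.21 ± 0.10 (adjusted p = 2.44e-14) at 72 h and −3.10 ± 0.10 (6.84e-11) at 144 h. For Trp53inp1 it was −4.40 ± 0.19 (2.07e-10) and −2.83 ± 0.14 (1.14e-09). Perp, a tetraspan protein of desmosomes, differed by −2.92 ± 0.11 at 72 h, and Zmat3, an RNA-binding regulator of splicing, by −2.06 ± 0.07 at 96 h. Rps27l, a ribosomal protein paralogue with the highest level per kilobase, differed by −0.54 to −0.82 at all times. Ei24, an endoplasmic reticulum protein, went from −1.19 ± 0.06 at 72 h to 0.03 ± 0.05 at 144 h. Triap1, a mitochondrial protein of phospholipid transfer, was called higher at 144 h (0.22 ± 0.09, adjusted p = 0.0483), a call lost whichever replicate number was left out.

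Gdf15, a secreted hormone-like member of the TGFβ family, was lower from 48 h, and its difference was larger at 120 and 144 h than before. It had 260.3, 284 and 262 normalised counts in WT–emiRFP and 38.8, 31.1 and 29.1 in p53KO–emiRFP cells at 144 h. At 72 h it had 150.0, 88.1 and 84.0 against 45.2, 41.8 and 34.7, and at 0 h 290.1, 251 and 347 against 140.0, 207 and 262. The groups overlapped at 0 h and were apart at the other times. Its log2 fold change was −0.55 ± 0.24 (adjusted p = 0.235) at 0 h, −1.39 ± 0.22 (2.21e-04) at 72 h and −3.02 ± 0.15 (1.33e-09) at 144 h.

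Among the members of metabolism and redox, Dcxr, a carbonyl and xylulose reductase, had the largest difference from 0 to 72 h, and Ak1, an adenylate kinase, from 96 to 144 h. In WT–emiRFP cells Dcxr had 899, 646 and 584 normalised counts at 0 h, next 1360.3, 1340.0 and 1305 at 48 h, next 3079, 2941 and 2592 at 72 h, and then 688, 725 and 610.3 at 144 h. In p53KO–emiRFP cells it had 173, 190.2 and 173, then 122, 124 and 80.5, then 184, 204 and 202, and finally 144, 133 and 127. All p53KO libraries were below all WT libraries, and the WT libraries peaked at 72 h. The log2 fold change was −1.99 ± 0.20 (adjusted p = 5.58e-05), −3.63 ± 0.11 (6.72e-13), −3.87 ± 0.09 (3.74e-13) and −2.32 ± 0.14 (5.57e-09) at these times. Ephx1, the microsomal epoxide hydrolase, and Ak1 differed by −2.89 ± 0.17 and −2.91 ± 0.08 at 72 h and by −2.31 ± 0.14 and −2.42 ± 0.10 at 144 h. Abhd4, a lipase, and Pltp, a phospholipid transfer protein, differed by −1.19 and −0.95 at 72 h. Fdxr, the mitochondrial ferredoxin reductase, was called at no time, with −0.26 to 0.15.

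Tigar, a sugar bisphosphatase that slows glycolysis, and Gpx1, a glutathione peroxidase, were lower late. Tigar had 2621, 2747 and 2870 normalised counts in WT–emiRFP and 1119, 1155 and 1236 in p53KO–emiRFP cells at 144 h, without overlap (−1.23 ± 0.06, adjusted p = 9.42e-10). At 72 h it was called higher by 0.15 ± 0.05 (0.0420), and at 96 h lower, with −0.16 ± 0.05 (0.0381). Both of these small calls were lost whichever replicate number was left out, and the former had the other sign against WT–mCherry cells. Gpx1 had 15767, 15142 and 14563 in WT–emiRFP and 6840, 6919 and 6956 in p53KO–emiRFP cells at 144 h (−1.13 ± 0.05, 3.65e-10), while at 48 h its difference was 0.10 ± 0.05 (0.140). Blocked by replicate number, Gpx1 was lower at 0 h (adjusted p = 6.91e-03) and higher at 48 h (9.82e-03), and Tigar likewise (0.0269 and 0.0198).

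Among the members of membrane, trafficking and cytoskeleton, Sulf2, an extracellular sulfatase of heparan sulfate that alters Wnt and growth factor signalling, had a transient difference. In WT–emiRFP cells it had 11511, 13072 and 13281 normalised counts at 0 h, next 6633, 6641 and 6988 at 48 h, next 16455, 17167 and 18687 at 96 h, and then 11744, 11311 and 11306 at 144 h. In p53KO–emiRFP cells it had 9160, 11351 and 11538 at 0 h, next 1170, 1229 and 1152 at 48 h, next 4220, 4105 and 4939 at 96 h, and then 13233, 11734 and 12739 at 144 h. The groups overlapped at 0 and 144 h and were apart between. The log2 fold change was −0.24 ± 0.10 (adjusted p = 0.218) at 0 h, −2.51 ± 0.06 (3.15e-14) at 48 h, then −2.90 ± 0.05 (2.36e-14) at 72 h and 0.13 ± 0.06 (0.0551) at 144 h. Blocked by replicate number, Sulf2 was lower at 0 h (adjusted p = 0.0468), where it was lower in each of the 3 same-numbered pairs, and higher at 144 h (0.0170). Sulf2 lies across from Ncoa3 on the other strand.

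Epha2, an ephrin receptor kinase, changed direction more than once. At 0 h it had 7226, 7628 and 8211 normalised counts in p53KO–emiRFP and 10938, 11152 and 10878 in WT–emiRFP cells, without overlap (−0.52 ± 0.11, adjusted p = 0.0128, lost without replicate 2). At 96 h it had 11917, 13856 and 11004 normalised counts in p53KO–emiRFP and 8567, 9745 and 8465 in WT–emiRFP cells, and at 144 h it had 1545, 1810 and 1916 against 6469, 6227 and 6471. The p53KO libraries were all above at 96 h and all below at 144 h, with log2 fold changes of 0.46 ± 0.09 (adjusted p = 1.70e-03, lost without replicate 1) and −1.86 ± 0.07 (2.72e-10). Def6 was lower at all times, with −1.66 ± 0.08 at 72 h and −2.30 ± 0.09 at 144 h. Dram1, a lysosomal protein of autophagy, was lower at 3 times, and Enc1, an actin-binding protein, at 4, with −0.71 ± 0.07 for Enc1 at 144 h.

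The cells also differed in their lineage markers, early as well as late. At 0 h all 4 markers of primed cells were higher in p53KO–emiRFP cells, with a summed level of 21308 to 27706 against 16076 to 18481 normalised counts, and 2 of 6 mES cell markers were lower. At 48 h summed caudal epiblast (322 to 351 against 194 to 230) and primordial germ cell levels (1081 to 1329 against 709 to 755) were higher. The summed paraxial mesoderm level was lower, with 848 to 955 against 956 to 1146. At 72 h the primed markers summed to 55659 to 62640 against 35390 to 44839, with 1 of 4 higher, and 3 of 6 mES cell markers were lower. At 96 h 5 of 6 mES cell and 4 of 5 paraxial mesoderm markers were lower and all 4 caudal epiblast markers higher. Paraxial mesoderm markers had the other direction later, with 4 of 5 higher at 120 h (summed level 45679 to 56571 against 11410 to 15429) and all 5 higher at 144 h (22746 to 29416 against 3371 to 4688). At 120 h all 4 caudal epiblast markers were also higher, and all 6 mES cell and 4 of 5 haematoendothelial markers were lower. At 144 h all 6 mES cell markers were lower in p53KO–emiRFP cells, with a summed level of 13235 to 19939 against 82415 to 94266 normalised counts. All 4 caudal epiblast markers were higher, with 11610 to 12127 against 536 to 690. Summed haematoendothelial (1682 to 2139 against 7144 to 7174) and primordial germ cell levels (1806 to 1954 against 4824 to 5191) were lower. None of these markers was at 0 in either group. The part of cell type composition in the differences of the members was not tested, and fewer cells of a type and less RNA per cell cannot be told apart in bulk samples.

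The second question was whether the difference between both emiRFP lines changed over time, tested in 1 fit of all 69 libraries. From 0 to 48 h the difference became more negative for 11 members and less negative or more positive for 3, against 3.22% and 2.77% of all genes. From 48 to 96 h it became more negative for 4 and rose for 11, against 5.74% and 4.97%. From 96 to 144 h it became more negative for 7 and rose for 11, against 21.9% and 25.7%. Plk2 had the largest change in the first and last windows, by −2.43 ± 0.27 (log2, adjusted p = 6.25e-09) from 0 to 48 h and by 4.28 ± 0.23 (1.05e-21) from 96 to 144 h. In the last window Plk2 rose by 3.70 ± 0.18 within p53KO–emiRFP cells and fell by 0.59 ± 0.14 within WT–emiRFP cells, and both moves narrowed the gap. Sulf2 changed by −2.27 ± 0.11 (1.30e-23) from 0 to 48 h and by 2.11 ± 0.10 (2.15e-23) from 96 to 144 h. Epha2 changed the other way in the last window, by −2.32 ± 0.14 (3.96e-20).

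Phlda3 changed most from 48 to 96 h, by 2.46 ± 0.27 (adjusted p = 9.13e-10), with a rise of 2.94 ± 0.22 in p53KO–emiRFP and of 0.48 ± 0.15 in WT–emiRFP cells. Dcxr changed by −1.64 ± 0.24 (4.74e-06) from 0 to 48 h and by 1.27 ± 0.24 (9.50e-05) from 48 to 96 h, and Plk2 by 1.02 ± 0.28 (0.0105) from 48 to 96 h. This last call was lost without replicate 2 or replicate 3. The difference was lowest at 72 h for 17 members, of which 16 were called lower at 1 or more times, and at 144 h for 10. The time of the lowest difference was not counted over all genes, so these counts have no background. Those with the late minimum were Plk3, Aen, Rps27l, Gdf15, Tigar, Gpx1, Epha2, Def6, Dram1 and Enc1.

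**Figure D3:**
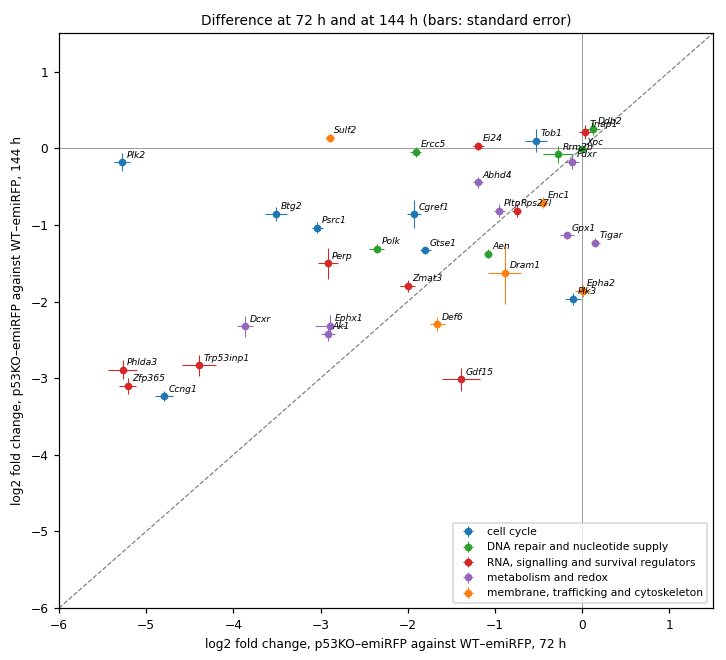
Log2 fold change of p53KO–emiRFP against WT–emiRFP cells at 144 h (vertical axis) against that at 72 h (horizontal axis) for the 36 members, coloured by role, with standard errors as bars and a dashed line of equality. Plk2 and Sulf2 lie far above the line, near 0 at 144 h. Gdf15, Epha2, Plk3, Tigar and Gpx1 lie below it. Both axes use the same genotype contrast with separate libraries for each time.

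In WT–emiRFP cells alone the members moved in both directions. From 0 to 48 h 16 fell and 17 rose, against 32.1% and 28.2% of all genes. From 48 to 96 h 15 fell and 10 rose, against 29.6% and 31.8%, and from 96 to 144 h 17 fell and 9 rose, against 30.1% and 31.3%. Ccng1 rose by 1.15 ± 0.09 (log2) from 0 to 48 h and fell by 1.01 ± 0.09 from 96 to 144 h, where Plk3 rose by 2.46 ± 0.12 and Gdf15 by 2.23 ± 0.23.

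The third question was whether these genes in WT cells differed between cultures with p53KO and with WT neighbours, which also differed in the number of neighbours seeded, so WT–mCherry cells beside p53KO cells were compared with those beside WT cells. From 96 h a part of the members was higher beside p53KO cells, by at most 2.01-fold, which was Perp at 144 h. At 48 h 0 members were higher and 0 lower, against 0% and 0.0736% of all genes. Unadjusted, 1 was higher and 1 lower, and DESeq2 called 0. At 72 h 0 were higher and 0 lower, against 0.231% and 0.327%. Unadjusted, 2 were higher and 1 lower, and DESeq2 called 0 higher and 1 lower. At 96 h 7 were higher (Plk2, Polk, Perp, Zfp365, Dcxr, Ak1 and Pltp) and 1 lower (Tigar), against 2.87% and 1.05%. At 120 h 8 were higher (Btg2, Plk2, Psrc1, Polk, Ercc5, Perp, Zfp365 and Ephx1) and 2 lower (Plk3 and Epha2), against 3.41% and 2.52%. At 144 h 16 were higher (Btg2, Plk2, Gtse1, Psrc1, Cgref1, Polk, Phlda3, Perp, Gdf15, Zfp365, Dcxr, Ephx1, Ak1, Pltp, Abhd4 and Def6) and 1 lower (Enc1), against 10.1% and 15.5%. The groups of every called member were apart except those of Psrc1 at 120 h and Cgref1 at 144 h. The median log2 fold change of the members was 0.02, 0.04, 0.16, 0.14 and 0.18 at the 5 times.

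These counts depended on the fit. Blocked by replicate number, 3, 0, 19, 17 and 18 members were higher and 1, 1, 3, 4 and 1 lower at the 5 times. Of all genes tested, which numbered 17662, 17714, 18356, 18901 and 19391, the same blocked fits called 221, 205, 2139, 1937 and 2926 higher and 651, 197, 1687, 1888 and 4303 lower. Without replicate 1 from every group 0 members were higher at 96 h, 0 at 120 h and 10 at 144 h. Without replicate 2 the counts were 0, 5 and 13, and without replicate 3 they were 9, 2 and 16. At 144 h, 10 calls held without each replicate number in turn, those of Dcxr, Def6, Ephx1, Gdf15, Perp, Phlda3, Pltp, Polk, Psrc1 and Zfp365. At 96 and 120 h none did.

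**Figure D4:**
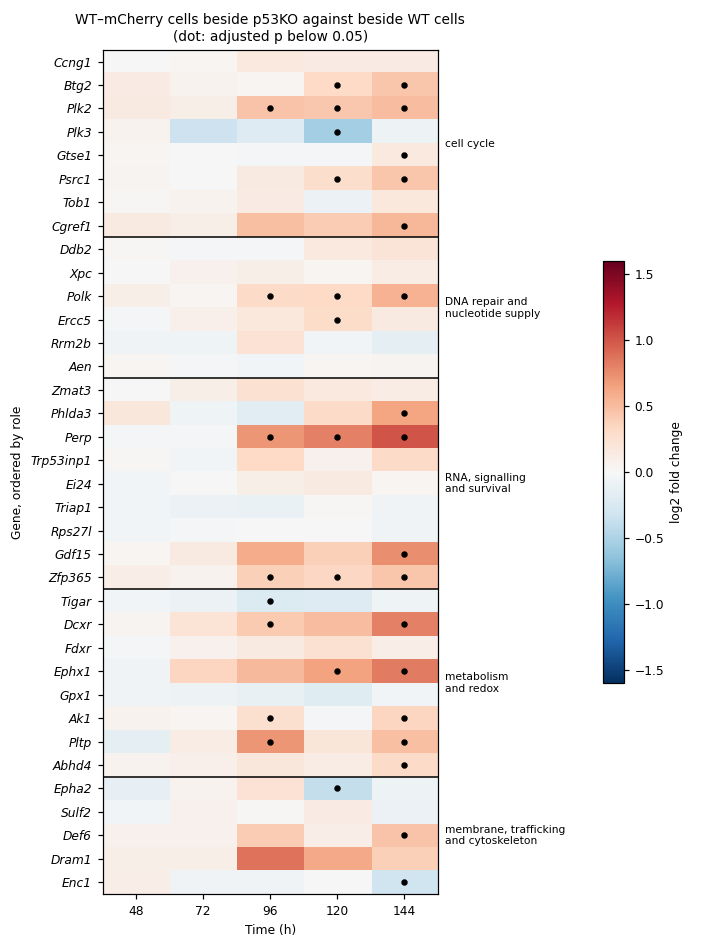
Heat map of the log2 fold change by neighbour in WT–mCherry cells, p53KO against WT, for the 36 members (rows, ordered by role) at 5 times (columns, h), with a dot where the adjusted p was below 0.05. The colour range is narrower than for the knockout. The columns at 48 and 72 h have no dot, and the column at 144 h has 16 red and 1 blue, with Perp, Ephx1 and Dcxr the darkest.

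Perp had the largest rise. Beside p53KO cells it had 1876, 1687 and 1309 normalised counts at 96 h, next 1058, 981 and 799 at 120 h, and then 827, 675 and 562 at 144 h. Beside WT cells it had 1162, 1021 and 807, then 461, 699 and 466, and then 379, 381 and 265. The groups did not overlap at any of these times, and the log2 fold changes were 0.71 ± 0.14 (adjusted p = 0.0185), 0.81 ± 0.15 (6.67e-03) and 1.01 ± 0.19 (1.96e-03). Ephx1 had 207, 235 and 168 beside p53KO and 139, 144 and 108 beside WT cells at 120 h, and 244, 234 and 235 against 131, 134 and 136 at 144 h. The libraries at 144 h formed narrow, separate groups, and the log2 fold changes were 0.64 ± 0.17 (0.0437) at 120 h and 0.83 ± 0.12 (5.28e-04) at 144 h.

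Dcxr had 1000.0, 965 and 769 normalised counts beside p53KO and 485, 606 and 463 beside WT cells at 144 h (0.81 ± 0.12, adjusted p = 5.88e-04). Phlda3 had 3426, 3398 and 2557 against 2060, 2142 and 1870 (0.63 ± 0.11, 1.32e-03), and Gdf15 had 256, 211 and 218 against 131, 151 and 126 (0.75 ± 0.13, 1.35e-03). All 3 genes had separate groups at 144 h. The neighbour difference of Phlda3 changed between 96 and 144 h by 0.80 ± 0.22 (0.0128), from −0.17 to 0.63. Phlda3 was the 1 member with such a change in that window, against 7.68% of all genes. Without replicate 1 or replicate 2 no member had such a change in that window, and without replicate 3 it was 1. Pltp was the 1 member whose neighbour difference changed from 48 to 96 h, by 0.85 ± 0.18 (0.0137), against 0.218% of all genes, and this call was lost whichever replicate number was left out. Pltp had 949, 1144 and 744 beside p53KO and 573, 681 and 486 beside WT cells at 96 h, and the groups did not overlap.

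Plk2, Zfp365 and Polk were higher beside p53KO cells at all 3 late times. At 120 h Plk2 had 3101, 2926 and 2816 normalised counts against 2198, 2220.3 and 2148 (0.43 ± 0.09, adjusted p = 9.85e-03). Zfp365 had 1051, 1006 and 920 against 758, 832 and 775 (0.33 ± 0.09, 0.0423), and Polk had 1322, 1299 and 1481 against 1026, 1171 and 1084 (0.32 ± 0.09, 0.0406). Each of these was separate at 120 h. Ccng1, the member with the highest median raw count, had log2 fold changes of 0.003 to 0.15 by neighbour at all 5 times, with no call in the unblocked fits. Its groups were nevertheless apart at 120 h (13630 to 14709 beside p53KO against 12287 to 13182 beside WT cells). At 144 h they were apart too (10801 to 11989 against 9864 to 10728).

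Plk3, Epha2 and Enc1 went down. At 120 h Plk3 had 785, 844 and 656 normalised counts beside p53KO and 1010, 1300.0 and 1019 beside WT cells (−0.54 ± 0.13, adjusted p = 0.0292). Epha2 had 3573, 3746 and 3022 against 4095, 5139 and 4222 (−0.38 ± 0.10, 0.0447). Enc1 had 4805, 5176 and 5126 against 6096, 5925 and 6798 at 144 h (−0.32 ± 0.07, 4.87e-03). The groups did not overlap, but at 144 h Plk3 differed by −0.08 ± 0.07 and Epha2 by −0.09 ± 0.07. With the estimated emiRFP-cell RNA subtracted by H2bc14 the call of Epha2 was lost, and by H2bc21, with an estimate of up to 23.7% at 120 h, those of both Epha2 and Plk3. Both genes were lower in p53KO–emiRFP cells at 120 h.

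**Figure D5:**
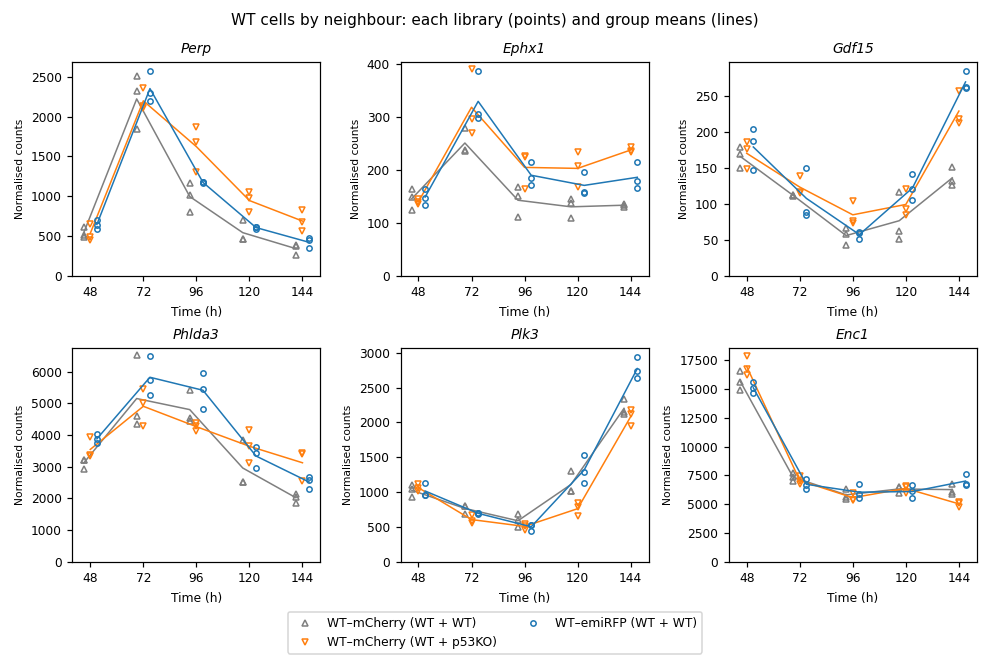
Normalised counts of 6 members against time (h) in each WT library (points) with group means (lines), for WT–mCherry cells beside WT, WT–mCherry cells beside p53KO, and WT–emiRFP cells beside WT, 3 libraries a group, with the vertical axis from 0. Perp lies higher beside p53KO cells from 96 h and Ephx1 at 120 and 144 h. At 144 h Gdf15 beside p53KO cells (211 to 256) lies nearer to WT–emiRFP (260.3 to 284) than to WT–mCherry cells beside WT cells (126 to 151).

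The share of emiRFP-cell RNA estimated by H2bc14 in the sorted WT–mCherry libraries was higher beside p53KO than beside WT cells from 96 h. Whether H2bc14 itself changed in WT–mCherry cells was not tested. With the estimated RNA subtracted, 9, 8 and 19 members were higher at 96, 120 and 144 h by H2bc14, and 12, 10 and 20 by H2bc21. The share of all genes called in these fits was not counted, so a gain particular to the members cannot be read from them. Without the library at 144 h with the highest estimate, replicate 1, 14 members were higher. Lineage markers of WT–mCherry cells moved with the neighbour too. At 120 h 4 of 5 paraxial mesoderm markers were higher beside p53KO cells, with a summed level of 25771 to 31783 against 14858 to 20529 normalised counts, and 3 of 4 caudal epiblast markers, with 17196 to 20731 against 11676 to 14003. Endoderm markers, of which 1 of 3 was higher, summed to 1036 to 1369 against 528 to 732. Haematoendothelial markers, of which 3 of 5 were lower, summed to 2605 to 2986 against 3661 to 4372. At 144 h all 4 caudal epiblast markers and 3 of 5 paraxial mesoderm markers were also higher in WT–mCherry cells beside p53KO cells, with a summed caudal epiblast level of 2138 to 2575 against 708 to 916 normalised counts and a summed paraxial mesoderm level of 4845 to 8805 against 7212 to 9114. None of these markers was at 0. The part of cell type composition in the neighbour differences was not tested.

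The control comparison of both WT clones, as separate mES cell cultures at 0 h and within WT + WT cultures from 48 h, gave the size of clone and reporter differences. In time order, 8, 4, 2, 1, 0 and 15 members differed between WT–mCherry and WT–emiRFP cells. Of all genes 11.1%, 8.9%, 7.64%, 2.15%, 1.22% and 23.8% differed at these times. Blocked by replicate number, 10, 14, 6, 17, 5 and 20 members differed, and of all genes 1859, 2174, 1606, 1609, 988 and 3200 were lower and 1320, 2924, 1259, 1318, 1052 and 3373 higher in WT–mCherry cells. The counts also rested on single replicate numbers. Without replicate 1, 2 or 3 they were 9, 1 and 4 at 0 h, then 0, 1 and 4 at 48 h, next 0, 0 and 3 at 72 h, and 3, 8 and 7 at 144 h. At 96 and 120 h they ran from 0 to 1 and from 0 to 2. At 120 h 4 members had an unadjusted p under 0.05, and DESeq2 called 1. At 144 h 14 of the 15 were lower in WT–mCherry cells. Gdf15 was among them, with 131, 151 and 126 normalised counts in WT–mCherry and 260.3, 284 and 262 in WT–emiRFP cells (−0.98 ± 0.13, adjusted p = 2.06e-04). At 0 h Zfp365 was higher in WT–mCherry cells by 1.24. With WT–mCherry cells in place of WT–emiRFP cells as the control, 23, 28, 28, 26, 29 and 26 members were lower in p53KO–emiRFP cells at the 6 times.

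Other genes of the p53 pathway, a list of 16 regulators, apoptosis genes and further targets, gave the wider setting. In p53KO–emiRFP cells 13, 13, 13, 14, 13 and 14 of them were lower at the 6 times and 0, 1, 1, 1, 1 and 2 higher, where 4.16%, 11.7%, 15.7%, 13.8%, 23.7% and 32.2% of all genes were lower and 1.97%, 10.3%, 13.4%, 9.45%, 27.3% and 33.2% higher. Mdm2, the main inhibitor of p53, had a log2 fold change of −1.89 ± 0.05 at 72 h, and Eda2r, a death receptor relative, of −6.71 ± 0.21. Pmaip1, a pro-apoptotic protein, was higher by 1.02 ± 0.07 (adjusted p = 3.22e-08) at 72 h. In WT–mCherry cells beside p53KO cells 0, 0, 4, 4 and 8 of the 16 were higher from 48 to 144 h and 0, 0, 0, 1 and 0 lower, against 0%, 0.231%, 2.87%, 3.41% and 10.1% of all genes higher and 0.0736%, 0.327%, 1.05%, 2.52% and 15.5% lower. Mdm2 was higher by 0.49 ± 0.04 and Trp73, a p53 relative, by 0.85 ± 0.09 at 144 h. Steap3, a metalloreductase, was the 1 lower gene at 120 h (−0.65 ± 0.13, adjusted p = 8.42e-03) and was higher at 144 h (0.44 ± 0.11, 0.0100). Blocked by replicate number, 1, 0, 10, 9 and 10 of the 16 were higher and 0, 0, 1, 1 and 0 lower. Of 12 mitosis genes 0, 0, 1, 1, 4 and 3 were lower and 0, 1, 5, 0, 1 and 2 higher in p53KO–emiRFP cells at the 6 times, and blocked 0, 1, 1, 2, 6 and 5 lower and 0, 6, 6, 2, 2 and 3 higher. Of 10 integrated stress response genes 1, 1, 1, 1, 2 and 5 were lower and 0, 2, 8, 9, 4 and 4 higher, and blocked 1, 3, 1, 1, 2 and 5 lower and 3, 2, 8, 9, 4 and 4 higher. Sesn2, a stress-induced regulator of growth signalling, is in both this list and the p53 pathway list. It was the 1 lower stress response gene from 0 to 96 h, with −1.05 ± 0.06 (adjusted p = 1.01e-08) at 72 h, and was lower at 120 and 144 h too. The shares of all genes given for the p53 pathway list apply to these lists too.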

How the data were processed

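RNA of sorted cells and of mES cells was sequenced in 69 libraries, 3 for each of 23 conditions. The authors trimmed reads with Trim Galore 0.6.7, aligned them to the mouse genome (GRCm38.p6, Gencode annotation) with STAR 2.7.11b and deposited raw counts of uniquely mapped reads per gene. The strand column they took is not given in the sources used here. Groups and replicate numbers were taken from the sample titles. The members and all lists were chosen with earlier results of these data known.

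Counts were scaled by median-of-ratios size factors over all 69 libraries (normalised counts). edgeR 4.0.16 (R 4.3.3, limma 3.58.1) quasi-likelihood tests were fitted to all genes that passed the low-count filter at a time, with all groups of that time in 1 fit, and to all 69 libraries for changes over time. The p-values were adjusted by Benjamini-Hochberg over all genes, with a threshold of 0.05, and errors are standard errors. The scripts were tested on simulated data. With 3 libraries against 3, an exact permutation test cannot go below 0.1, so none was used.

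Values in every library are given for the 6 members with the most negative mean log2 fold change in p53KO–emiRFP cells, members higher there at 3 or more times, the up to 5 largest rises and 3 largest falls by neighbour at 120 and 144 h, and the up to 3 largest changes of a difference over time. Tigar, Gpx1 and the knockout values of Plk3, Polk and Gdf15 were added after their values were seen. Same-numbered libraries deviated together in every pair at 6 of 6 times for the knockout comparison (correlations of 0.118 to 0.494), at 4 of 5 for the neighbour comparison (lowest 0.0717, at 120 h) and at 4 of 6 for the comparison of clones (lowest 0.0377). Alternatives were TMM normalisation, no low-count filter, the replicate block, DESeq2 1.42.0, an absolute log2 fold change of at least 1, fits of the compared groups or of all 23, subtraction of emiRFP-cell RNA, each replicate number left out, and, chosen after seeing the data, WT–mCherry cells as the control and the neighbour comparison at 144 h without replicate 1 of the WT–mCherry libraries beside p53KO cells. Figures were drawn with Python 3.11.15, pandas 2.3.3 and matplotlib 3.10.9.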

Additional observations from a re-analysis of the deposited data

Results flagged for a closer look

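The genotype difference of the members changed between times by a test of that change itself. It changed for 14 members from 0 to 48 h, 15 from 48 to 96 h and 18 from 96 to 144 h. Of all genes, 3.22% and 2.77% became more negative and more positive in the first window, 5.74% and 4.97% in the next and 21.9% and 25.7% in the last, so that the members' count in the last window was near the background. On the log2 scale, from 0 to 48 h it changed by −2.43 for Plk2, −2.27 for Sulf2 and −1.64 for Dcxr. From 48 to 96 h it changed by 2.46 for Phlda3, 1.27 for Dcxr and 1.02 for Plk2, and from 96 to 144 h by 4.28 for Plk2, −2.32 for Epha2 and 2.11 for Sulf2. Without each replicate number in turn, 6 of the 14, 5 of the 15 and 13 of the 18 calls held, and that of Plk2 from 48 to 96 h did not.

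The neighbour difference in WT–mCherry cells changed for 1 member from 48 to 96 h (Pltp, 0.853) and for 1 from 96 to 144 h (Phlda3, 0.797), where 0.218% and 7.68% of all genes changed. Without each replicate number in turn 0 members changed in the first window, and in the later one 0 changed without replicate 1 or replicate 2 and 1 without replicate 3. The count in the later window is not above the background.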

How the results depend on the processing

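For 36 counts and medians, 210 of 259 values under another setting stayed within 1.5 times the count or, for medians, within the spread between replicates. None of the 11 medians was reversed, and the counts were not scored for reversal. The replicate block moved the members higher beside p53KO cells to 3 (48 h), 19 (96 h) and 17 (120 h), those that differed between WT clones to 14 (48 h), 6 (72 h), 17 (96 h) and 5 (120 h), and the change of the neighbour difference from 96 to 144 h to 2. All 159 knockout calls held with it and with DESeq2. DESeq2 gave 13 by neighbour at 96 h and 5 (96 h) and 1 (120 h) between clones. With no low-count filter these were 14, 7 and 1, and the neighbour difference changed for 2 and 3 members in the 2 windows. With an absolute log2 fold change of at least 1, 18 members were lower at 120 h in p53KO–emiRFP cells, 0, 0 and 1 higher by neighbour at 96, 120 and 144 h, 2, 0, 0, 0 and 0 different between clones at 0, 48, 72, 96 and 144 h, 8 changed in WT–emiRFP cells in each window, 6 and 3 changed their knockout difference in the first and next window, and 0 and 0 their neighbour difference. With only the compared groups the counts were 2 by neighbour at 120 h and 5 (0 h) and 1 (72 h) between clones. With all 23 groups they were 3 by neighbour at 96 h and 15, 1, 0 and 9 between clones at 0, 48, 96 and 144 h. Subtraction by H2bc14 moved the neighbour median to 0.19 (96 h) and 0.26 (144 h), and by H2bc21 the count at 96 h to 12 and the medians to 0.21, 0.25 and 0.31 from 96 h. With WT–mCherry cells as the control the knockout medians were −0.97 (48 h), −0.90 (120 h) and −0.97 (144 h), and Tigar at 72 h went to −0.0125 from 0.15. The cause of these moves was not tested. Without each replicate number, members lower in p53KO–emiRFP cells numbered 17 to 24, 23 to 24, 27 to 28, 24 to 24, 25 to 28 and 26 to 26 at the 6 times, with medians of −0.90 to −0.68, −1.11 to −1.08, −1.61 to −1.43, −1.19 to −1.11, −1.04 to −0.97 and −1.20 to −1.17. Members higher by neighbour numbered 0 to 0, 0 to 0, 0 to 9, 0 to 5 and 10 to 16, with medians of 0.01 to 0.03, 0.03 to 0.07, 0.15 to 0.19, 0.14 to 0.16 and 0.19 to 0.21. Those that differed between clones numbered 1 to 9, 0 to 4, 0 to 3, 0 to 1, 0 to 2 and 3 to 8. Over the 3 windows, 26 to 31, 19 to 23 and 24 to 26 changed in WT–emiRFP cells and 7 to 10, 6 to 11 and 15 to 19 changed their knockout difference, and 0 to 0 and 0 to 1 their neighbour difference. 3 libraries a group limit what small differences can show.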
